A study of Mus musculus with 6 samples.

Results

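The 10 genes described here are transcripts that signalling through the extracellular signal-regulated kinases (ERK) is known to induce, most of which restrain the same pathway. They are the MAP kinase phosphatase genes Dusp6, Dusp4 and Dusp5, the ETS transcription factor genes Etv4 and Etv5, the feedback inhibitor genes Spry1, Spry2, Spry4 and Spred1, and the immediate early gene Egr1. They were found by symbol among the 22298 genes of the deposited table. All 10 were present, and all 10 passed the filter on low counts that left 12747 genes for testing. The genes were chosen by role and symbol once the fold changes and calls between these same samples were known, so their levels and fold changes are given as a description, with no p-value. Genes of the pathway outside these 10 were compared with a test across all genes, and a gene is called where its FDR (Benjamini-Hochberg adjusted p) was under 0.05.

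The RNA came from MIN6, an insulin-secreting line derived from a mouse insulinoma, in 3 control samples and 3 samples labelled chronic epinephrine. The study exposed cells to 100 nM epinephrine for 3 days and then kept them without it for 2 days. The day on which RNA for sequencing was collected is not given in the sources used here. All 6 samples are of 1 tumour-derived line. The study's methods state at least 3 biological replicates for its data and describe n as independent samples. The labels do not say whether these were separate cultures, and p-values measure the spread between the samples as labelled.

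The libraries held 15017065 to 18127171 expected counts. The 14 beta-cell markers examined were all detected, with Ins2 at 24500 to 37100 CPM (counts scaled to library size after TMM normalization), and 2 of them were called, Ins1 and Slc2a2, both lower (0.612% of all genes tested were called lower). Control 1 stood apart from the other controls. Across genes, Pearson's r of log2 CPM was 0.979 and 0.978 between control 1 and controls 2 and 3, while it was 0.993 between controls 2 and 3. The beta-cell markers summed to 54000 CPM in control 1 and to 64200 to 70900 CPM in the other 5 libraries. The low sum lay in abundant genes such as Ins2 (24500 CPM against 34400 and 37100 in controls 2 and 3) and Iapp (8460 against 14000 and 14700), while Pdx1, Nkx6-1, Nkx2-2, Mafa and Chga were highest in control 1. The 12 hepatocyte markers summed to 850, 1130 and 1490 CPM in controls and to 1570 to 1760 CPM after epinephrine, most of it Ttr (837, 1060 and 1330 CPM in controls and 1620, 1560 and 1740 CPM after epinephrine). Without Ttr and Tat, set aside after their values were seen, the other 10 summed to 55.3 and 141 CPM in controls 2 and 3. Most of that was Alb, at 33.9 and 82.3 CPM. The sum was 2.01 CPM in control 1 and 2.75 to 3.17 CPM after epinephrine, so the signal lay in controls 2 and 3 only. Summed levels were 177 to 214 CPM in controls and 379 to 412 CPM after epinephrine for 6 alpha- and delta-cell markers, nearly all of it Gcg, which was called higher (log2 fold change 1.02, edgeR FDR 0.00199). They were 1.77 to 24.0 and 1.98 to 19.7 CPM for 8 fibroblast markers, 1.09 to 3.24 and 3.19 to 4.56 CPM for 8 leukocyte markers, of which Cd68 was called higher (5.23-fold, edgeR FDR 0.00906), and at most 1.17 CPM for 7 exocrine markers, of which Prss2, Cpa1, Pnlip and Cel had 0 counts in all libraries. The part of these differences in the results was not tested. In bulk RNA, a change in the number of cells that express a gene and a change in RNA per cell cannot be told apart.

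In the ERK pathway, receptors for growth factors, or receptors coupled to G proteins, activate Ras, which recruits RAF kinases. These phosphorylate the kinases MEK1 and MEK2, which phosphorylate ERK. Active ERK phosphorylates transcription factors that bind ETS sites and, with serum response factor (SRF), CArG boxes. Immediate early genes such as Egr1 are transcribed within minutes, and genes such as Dusp6, the Sprouty genes and the PEA3 group of ETS factors follow. The products of many of these genes shut the pathway down again, so their transcripts are widely used as a readout of its activity. In beta cells, glucose and calcium entry activate ERK, while epinephrine acts mainly on the alpha2A-adrenergic receptor, which is coupled to inhibitory G proteins.

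Promoter sequences are shown for Dusp6, which had the largest fold change of the 10 genes, and for Dusp5. Among the genes whose promoters were searched, Dusp5 held the only matches to the motifs. They are RefSeq sequences on GRCm38.p6, both on the plus strand and ending just before the first annotated start of the gene. Capitals mark matches to the CArG box, the SRF site.
Dusp6, chr10:99262981-99263230: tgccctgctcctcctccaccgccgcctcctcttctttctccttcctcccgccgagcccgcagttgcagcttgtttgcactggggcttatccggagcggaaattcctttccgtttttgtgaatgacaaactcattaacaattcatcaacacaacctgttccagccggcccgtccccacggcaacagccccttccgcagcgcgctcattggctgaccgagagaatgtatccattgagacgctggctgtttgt
Dusp5, chr19:53528895-53529108: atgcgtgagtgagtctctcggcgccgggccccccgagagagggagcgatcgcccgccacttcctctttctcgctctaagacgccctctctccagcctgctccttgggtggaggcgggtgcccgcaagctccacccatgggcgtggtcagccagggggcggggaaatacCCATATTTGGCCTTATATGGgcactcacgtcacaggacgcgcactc

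RefSeq promoters were searched for 6 of the 10 genes (Dusp6, Dusp5, Etv5, Spry1, Spry2 and Spred1), with 250 bases before each start searched on both strands. The promoters of Dusp4, Etv4, Spry4 and Egr1 were not searched, so nothing is said of their motifs. Besides the CArG box, the motifs were CCGGAA (an ETS core with its flank), TGANTCA (AP-1), TGACGTCA (the cAMP response element) and TGATGNAA (C/EBP-ATF). Dusp5 held 2 adjacent CArG boxes, which began 82 and 72 bases before the RefSeq start, and 1.47% of all 32851 promoter windows of this length held at least 1. The other motifs were held by 12%, 6.75%, 1.55% and 3.45% of windows, in the order given, and by none of the 6 genes. A match is a description of the sequence, and the lack of a match says only that these letters are not in this window.

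The ERK phosphatases were all higher after chronic epinephrine, by very different amounts. Dusp6 (ENSMUSG00000019960, chromosome 10 of GRCm38 from 99263231 to 99267489) encodes the cytoplasmic phosphatase that binds and inactivates ERK. Its level was 6.99, 7.89 and 8.51 CPM in controls 1, 2 and 3 and 30.5, 29.2 and 32.8 CPM after epinephrine, so that the groups lay far apart. The means were 7.80 ± 0.763 and 30.8 ± 1.82 CPM (SD, n = 3). The difference was 3.95-fold, or 1.98 on the log2 scale (SE 0.11). Only 22 of the 12747 genes tested (0.173%, Dusp6 included) had a log2 fold change of this size or more in either direction.

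Dusp4 (ENSMUSG00000031530, chromosome 8 from 34807297 to 34819894) encodes an inducible nuclear phosphatase of ERK and other MAP kinases. It was at 45.8, 34.6 and 38 CPM in controls and at 89.6, 89.5 and 96.9 CPM after epinephrine. Control 1 was the highest of the controls, and every epinephrine library lay above it. The means of 39.5 ± 5.71 and 92.0 ± 4.24 CPM gave a log2 fold change of 1.22 (SE 0.11), or 2.33-fold.

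Dusp5 (ENSMUSG00000034765, chromosome 19 from 53529109 to 53542431), which carries the CArG boxes shown above, encodes a nuclear phosphatase that acts on ERK. It was at 73.0, 74.2 and 69.8 CPM in controls and at 99.6, 95.8 and 97.1 CPM after epinephrine. The groups did not overlap, and the change was the smallest of the phosphatases, a log2 fold change of 0.43 (SE 0.08) or 1.35-fold. An antisense gene on the other strand, AC137853.2, overlaps Dusp5 exons, and 20.5% of the 50-base windows of Dusp5 transcripts were shared with it. Whether the counting used strand is not given in the sources used here.

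Both ETS factors of the PEA3 group that belong to the 10 genes were higher. Etv4 (ENSMUSG00000017724, chromosome 11 from 101769742 to 101785371) was a gene of few counts, 21 to 37 per control library and 84 to 98 per epinephrine library. These were 1.55, 1.20 and 2.32 CPM in controls and 5.81, 4.71 and 6.21 CPM after epinephrine, a log2 fold change of 1.72 (SE 0.25) or 3.30-fold. Its standard error was the largest of the 10. Etv5 (ENSMUSG00000013089, chromosome 16 from 22381309 to 22439719) was at 12.2, 9.14 and 11.7 CPM in controls and at 20.4, 23.0 and 26.8 CPM after epinephrine, a log2 fold change of 1.09 (SE 0.15) or 2.12-fold. For both genes the lowest epinephrine library lay above the highest control. Of the 50-base windows of Etv5, 24.5% were shared with Gm4798, a processed pseudogene, so reads could have been split between them.

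The feedback inhibitors that act above ERK did not move together. Sprouty proteins interfere with the activation of Ras and RAF below receptor tyrosine kinases, and SPRED1 recruits neurofibromin, which inactivates Ras. Spry4 (ENSMUSG00000024427, chromosome 18 from 38586247 to 38601415) was at 6.93, 3.83 and 4.38 CPM in controls and at 10.4, 8.40 and 9.45 CPM after epinephrine. Its log2 fold change was 0.90 (SE 0.22), or 1.87-fold, and control 1 lay nearer to the epinephrine libraries than the other controls did. Spry2 (ENSMUSG00000022114, chromosome 14 from 105891947 to 105896819) changed less, and control 1 was again the highest control. Its level was 8.61, 5.72 and 7.01 CPM in controls and 11.4, 10.6 and 9.78 CPM after epinephrine. The log2 fold change of Spry2 was 0.58 (SE 0.16).

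Spry1 (ENSMUSG00000037211, chromosome 3 from 37639947 to 37644598) and Spred1 (ENSMUSG00000027351, chromosome 2 from 117121374 to 117182279) overlapped between the groups. Spry1 was at 7.06, 6.23 and 7.26 CPM in controls and at 7.35, 7 and 6.81 CPM after epinephrine, a log2 fold change of 0.05 (SE 0.13). Spred1 was at 21.5, 18.7 and 17.5 CPM in controls and at 21.1, 21.3 and 21.5 CPM after epinephrine, a log2 fold change of 0.15 (SE 0.11). The highest Spred1 control, control 1, was level with the highest epinephrine library. Of the windows of Spry1, 21.8% were shared with Gm42922, a gene model on the other strand.

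Egr1 (ENSMUSG00000038418, chromosome 18 from 34859823 to 34864984), a zinc finger factor and the classical immediate early gene of the pathway, was the only gene of the 10 that was lower. It was at 782, 606 and 586 CPM in controls and at 524, 546 and 536 CPM after epinephrine. The groups did not overlap, but control 1 was far above controls 2 and 3, which lay much nearer to the epinephrine libraries. The log2 fold change was -0.30 (SE 0.12), the opposite sign to that of the other 9 genes.

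**Figure D1:**
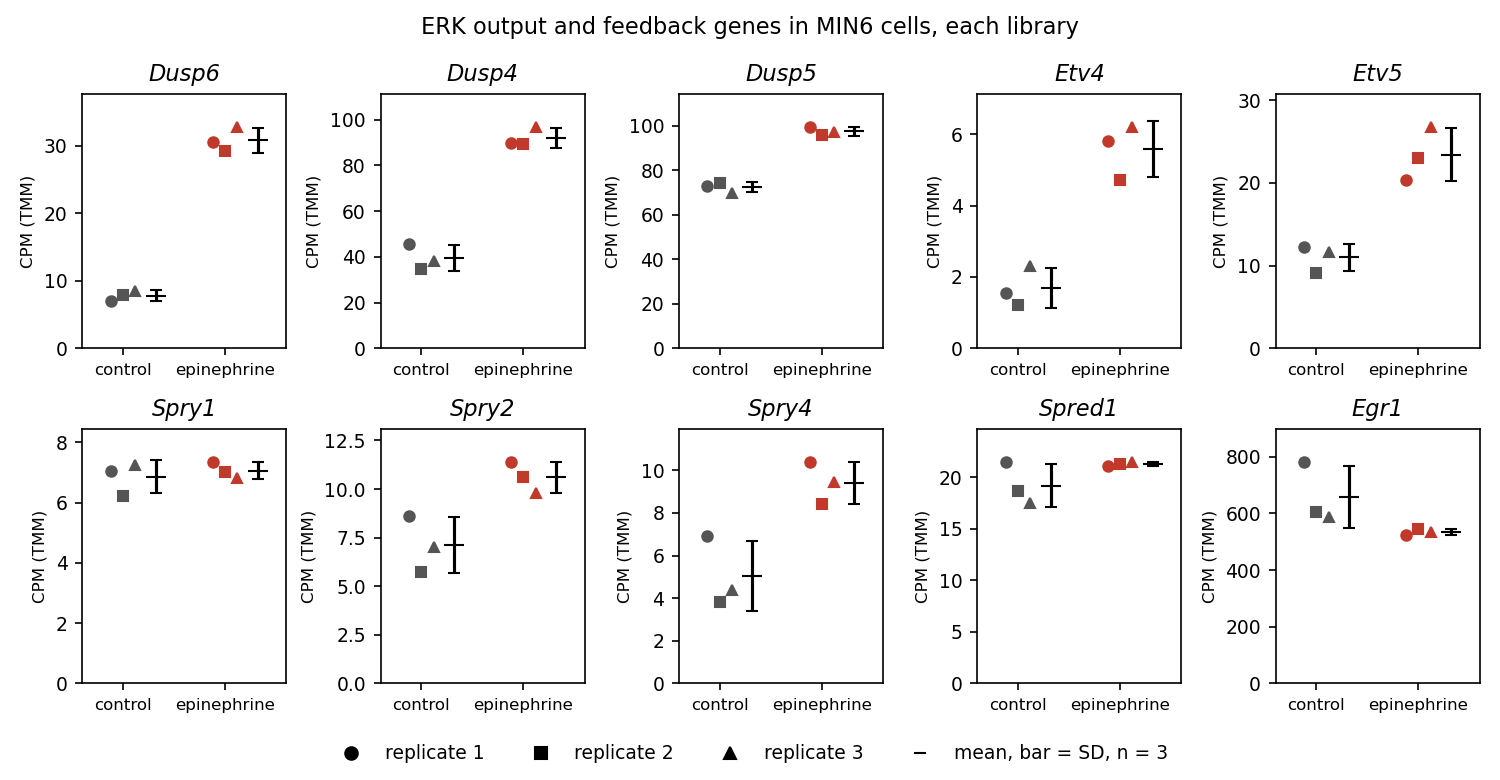
TMM-normalized CPM (linear axis from 0) of the 10 genes in each of the 6 libraries, with the mean and SD of each group (n = 3). Dusp6 lies between 6.99 and 8.51 CPM in controls and between 29.2 and 32.8 CPM after epinephrine, while Spry1 and Spred1 overlap between the groups and Egr1 is lower after epinephrine.

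In the fit across all genes, 5 of the 10 genes were called, all 5 of them higher (Dusp6, Dusp4, Dusp5, Etv4 and Etv5), where 2.63% of all genes tested were called 2.02% higher and 0.612% lower. All 3 phosphatases and both ETS factors were among the called genes, while none of the 4 Sprouty and Spred genes was, nor was Egr1. In 8 of the 10 every library of one group lay above every library of the other, 7 higher and 1 lower, against 27.3% of all genes tested, 14.3% higher and 13% lower. The 10 genes had a median log2 fold change of 0.74, and all genes tested one of 0.00. As the genes were chosen with this comparison in view, nothing is read from these counts. The KEGG labels of the deposited table place the 3 phosphatases in MAPK signaling, and Dusp6, Etv4 and Etv5 in transcriptional misregulation in cancers, and give no pathway for Spry1, Spry4 and Spred1.

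Other ways of fitting all 6 libraries left the same 5 genes called in 7 cases. These were the size factors of DESeq2 and upper quartile scaling (2.57% of all genes called with each), library size only (2.47%), limma on log2(FPKM + 1) and log2(FPKM + 0.1) (2.06% and 2.03%), no filter on low counts (2.03%) and at least 10 counts in every sample (2.69%). The Wald test of DESeq2 called Spry4 as a sixth gene, against 5.95% of all genes. With replicate number as a block Dusp5 was not called (4 of 10, against 1.4%), and with at least 2-fold asked as well it was again the gene that dropped out (4 of 10, against 0.722%).

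Levels were compared between genes on the deposited FPKM values, which are scaled to transcript length. In controls the order of mean levels was Egr1 (197 FPKM), Dusp5 (29.5), Dusp4 (14.5), then Spry2 (3.44), Spred1 (3.29), Dusp6 (2.81), Etv5 (2.80) and Spry1 (2.76), then Spry4 (1.08) and Etv4 (0.713). Egr1, Dusp5 and Dusp4 were each separated from the next gene in every library, while from Spry2 to Spry1 each gene overlapped the next, as did Spry4 and Etv4. After epinephrine Dusp6 was the fourth at 11 FPKM, apart from Dusp4 (33.2) above it and Etv5 (5.82) below it, and Etv5 overlapped Spry2 (5.03). Etv4 (2.31) and Spry4 (1.96) were again the lowest and overlapped each other. Dusp6 was thus among a run of overlapping genes in controls and separate from its neighbours after epinephrine.

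Relative to the mean of the controls, the 3 epinephrine libraries agreed closely for Dusp6, Dusp4 and Dusp5, at 1.89 to 2.06, 1.19 to 1.3 and 0.41 to 0.46 on the log2 scale. The controls were less even. Control 1 lay above the mean of controls 2 and 3 by 0.74 for Spry4, 0.44 for Spry2, 0.39 for Egr1, 0.33 for Dusp4, 0.25 for Spred1 and 0.24 for Etv5. For Dusp6 and Etv4 it lay below, at -0.23 and -0.10, and for Dusp5 and Spry1 the difference was 0.02 and 0.07. Over all genes tested, the median distance in either direction from the mean of the other controls was 0.29 for control 1, 0.17 for control 2 and 0.16 for control 3.

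**Figure D2:**
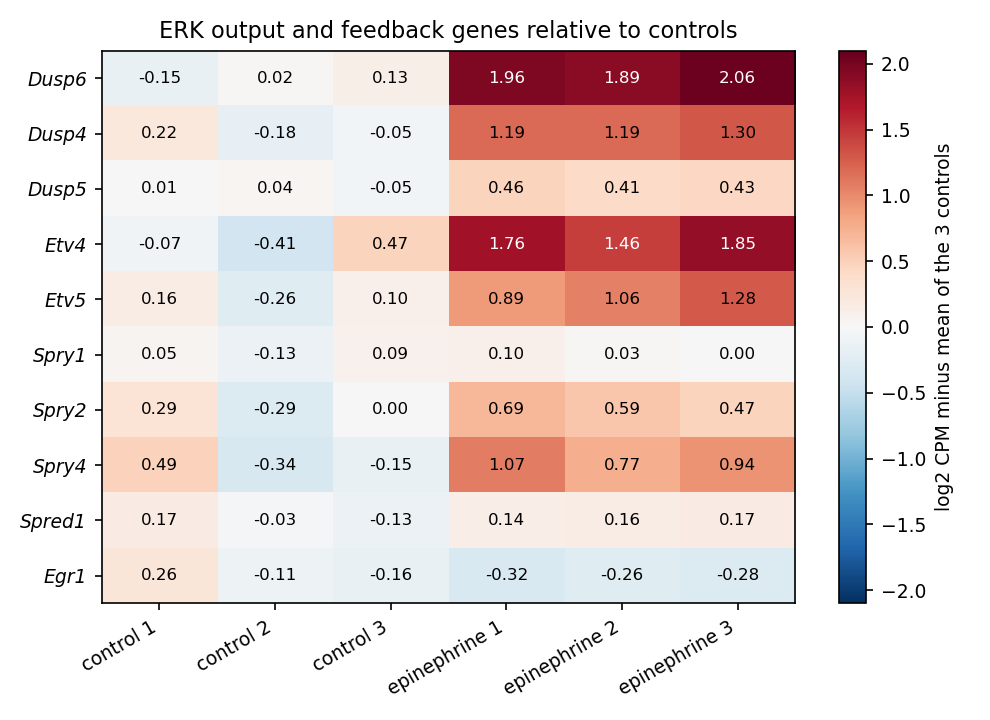
Log2 CPM of each gene in each library minus the mean of the 3 controls, as colour and number. The Dusp6 row is between 1.89 and 2.06 in the epinephrine libraries, and the largest spread among controls is that of Etv4, from -0.41 to 0.47, followed by Spry4, from -0.34 to 0.49.

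Each library was left out in turn, again as a description, since the genes were chosen with values of these libraries known. Dusp6 and Dusp4 were called in all 6 fits, with log2 fold changes of 1.91 to 2.05 and of 1.13 to 1.34. Etv5 was called in 4 fits (0.96 to 1.17), Etv4 in 2 (1.51 to 2.02) and Dusp5 in 1 (0.41 to 0.44), although the size of the Dusp5 difference hardly moved. Without control 1, 8 of the 10 genes were called, 7 higher and 1 lower, but so were 21.6% of all genes tested. In that fit Spry4 had a log2 fold change of 1.20, Spry2 one of 0.74 and Egr1 one of -0.16, so that the difference of Spry4 was larger and that of Egr1 smaller when the library that stood apart was removed. Without chronic epinephrine 2 or 3, 2 of the 10 were called, against 0.364% and 0.593% of all genes. Leaving out control 2 or chronic epinephrine 1 left 3 called (0.839% and 0.364% of all genes), and leaving out control 3 left 4 (1.48%). Spry1 was the only gene whose sign changed, to -0.03 without control 2.

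**Figure D3:**
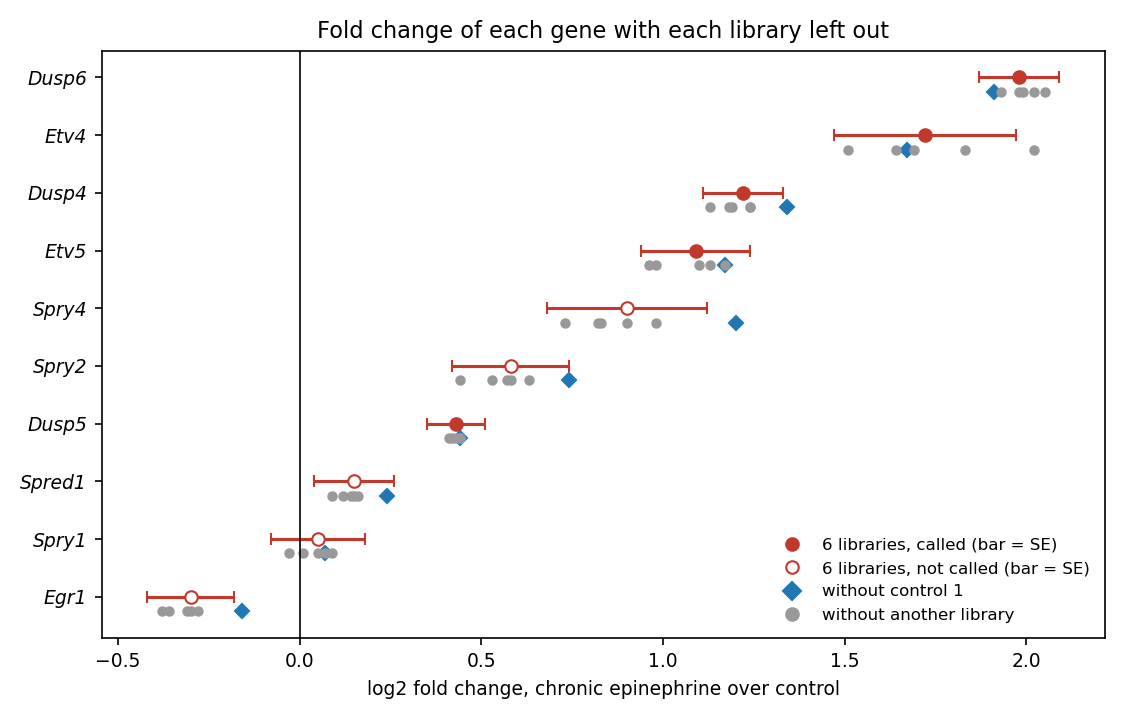
Log2 fold change of each gene over all 6 libraries (red, bar = SE, filled where the gene was called at an FDR under 0.05) and with each library left out (grey, and blue for control 1). Dusp6 lies between 1.91 and 2.05 whichever library is left out, and Spry4 moves to 1.20 without control 1.

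The other genes of the pathway were compared in lists written from general knowledge, with earlier results of these data known. Their counts and calls are therefore not independent of those results. Of 40 further genes that ERK is known to induce or that feed back on it, 39 were in the table and 34 were tested. Of those tested, 2 were called, both higher (5.88%, against 2.02% of all genes called higher and 2.63% in either direction). The first was Etv1, the third factor of the PEA3 group, which went from 177, 163 and 163 CPM in controls to 246, 257 and 255 CPM after epinephrine, a log2 fold change of 0.59 (SE 0.08, edgeR quasi-likelihood FDR 0.00853, and 3.21e-10 to 0.0839 over the alternatives). The second was Errfi1, which encodes an inhibitor of the epidermal growth factor receptor, from 52.8, 54.9 and 54.4 CPM to 74.9, 70.7 and 68.6 CPM, a log2 fold change of 0.40 (SE 0.08, edgeR FDR 0.0384, and 3.52e-05 to 0.256 over the alternatives). Every epinephrine library lay above every control for both. With a library left out, Etv1 was called in 2 of 6 fits and Errfi1 in 1, and without control 2, chronic epinephrine 1, 2 or 3 no gene of the list was called. Over the 34 genes the median log2 fold change was 0.05, with 22 higher and 12 lower. An unadjusted edgeR p under 0.05 was found for 14 of them (41.2%, against 17.1% of all genes). DESeq2 called 6 (17.6%, against 5.95%).

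The paralogs of the 10 genes differed in level and direction. Spred2 and Spred3, the relatives of Spred1, had log2 fold changes of 0.50 (SE 0.14, edgeR FDR 0.112) and 0.45 (SE 0.12, edgeR FDR 0.104), with groups that did not overlap. Among MAP kinase phosphatases, Dusp1 had a log2 fold change of -0.26 (SE 0.09, edgeR FDR 0.192) and Dusp7, the nearest relative of Dusp6 that was tested, one of 0.05 (SE 0.10, edgeR FDR 0.846). The phosphatases that prefer JNK and p38 were 3, and 0 were called by edgeR, with 1 at an unadjusted p under 0.05. That was Dusp10, with 45.4, 43.4 and 43.0 CPM in controls and 56.8, 57.1 and 53.6 CPM after epinephrine (log2 fold change 0.35, SE 0.08, edgeR FDR 0.0668), while Dusp8 and Dusp16 had log2 fold changes of -0.26 (SE 0.17) and 0.01 (SE 0.11). The Egr1 paralogs Egr2, Egr3 and Egr4 had log2 fold changes of 0.39 (SE 0.32), 0.06 (SE 0.42) and 0.16 (SE 0.20), at 5.29 CPM or less in every library. Dusp2 and Dusp9 were at most 0.388 CPM and were not tested.

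No gene of the ERK cascade itself was called. Of 44 adaptors, Ras proteins and their regulators, RAF, MEK and ERK kinases and kinases downstream of ERK, 41 were tested and 0 were called by edgeR, while 6 had an unadjusted p under 0.05 (14.6%, against 17.1% of all genes) and DESeq2 called 2 (4.88%, against 5.95%). The median log2 fold change was -0.08, with 15 higher and 26 lower. Mapk3, which encodes ERK1, was at 297, 268 and 290 CPM in controls and at 233, 238 and 241 CPM after epinephrine (log2 fold change -0.26, SE 0.08, edgeR FDR 0.145). It was 1 of the genes called by DESeq2, and the other was Rap1b (0.36, SE 0.10, edgeR FDR 0.107), a small GTPase of the Ras family. Map2k1 and Map2k2, which encode MEK1 and MEK2, had log2 fold changes of 0.17 (SE 0.08) and 0.23 (SE 0.10), and Braf, which encodes a RAF kinase, one of 0.00 (SE 0.09). Without control 1, 6 genes of the cascade were called (14.6%, against 21.6% of all genes), 3 higher and 3 lower, Map2k2 among the higher and Mapk3 among the lower. No other left-out library gave a call.

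Of 42 growth factor receptors and ligands that feed the pathway, 28 were tested and 0 were called by edgeR, with 10 at an unadjusted p under 0.05 (35.7%, against 17.1% of all genes), and DESeq2 called 1 (3.57%, against 5.95%), the growth factor gene Igf2. The median log2 fold change was -0.05, with 11 higher and 17 lower. Without control 1, 8 genes were called (28.6%, against 21.6% of all genes in that fit), 3 higher and 5 lower. One of them, named after its values were seen, was Igf1r, the receptor of insulin-like growth factors. It was at 74.2, 41.3 and 37.9 CPM in controls and at 83.6, 75.0 and 84.3 CPM after epinephrine, a log2 fold change of 0.66 (SE 0.23, edgeR FDR 0.188) over all libraries and of 1.03 (SE 0.07) without control 1.

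**Figure D4:**
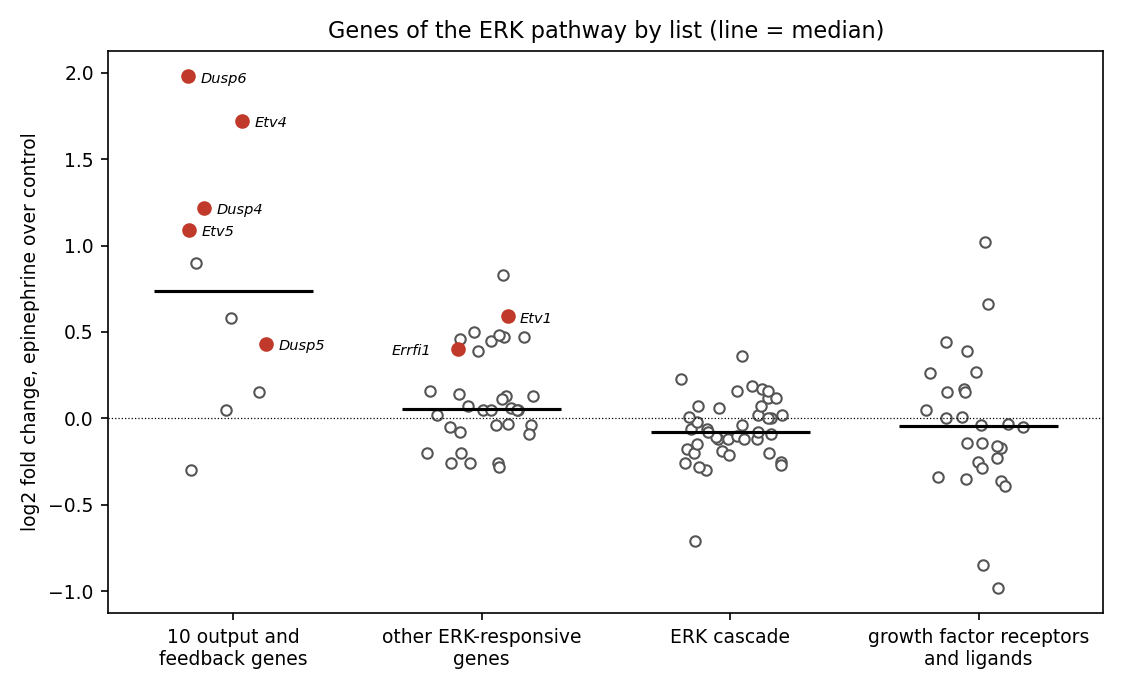
Log2 fold change of each tested gene in the 4 lists (red and named where called at an FDR under 0.05, open otherwise), with the median of each list as a line. The medians are 0.74 for the 10 genes, 0.05 for other ERK-responsive genes, -0.08 for the cascade and -0.05 for receptors and ligands.

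The genes whose profile over the 6 libraries was nearest to that of Dusp6 were Slc7a3, Fam129a, Fkbp11, Gsdma and Ptgs2, in that order. Slc7a3 encodes a transporter of cationic amino acids, Fkbp11 a prolyl isomerase of the secretory pathway, and Ptgs2 the inducible cyclooxygenase. The measure was the Euclidean distance between log2 CPM values centred on the controls, which was 0.278 for Slc7a3 and 0.504 for Ptgs2. Their log2 fold changes ran from 1.77 for Fkbp11 to 2.25 for Gsdma. Of the other 9 genes described here, Etv4 was nearest to Dusp6 at 0.761, followed by Dusp4 at 1.37, and Egr1 was the farthest at 3.94.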

How the data were processed

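The 10 genes and all lists were chosen with earlier results of these data known. The values deposited by the authors are expected counts and FPKM, 1 of each per sample in every gene's line. Per the labels the genome build was GRCm38, and the aligner, counter and strand setting are not given in the sources used here. Of the expected counts, 8.34% were not whole, and all were rounded. Library totals were 15017065, 17457583 and 16059175 in controls 1, 2 and 3 and 16954483, 18127171 and 15256957 in chronic epinephrine 1, 2 and 3. A count of 0 allows up to 3 counts, 0.165 to 0.200 CPM, for counting error only.

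Genes kept by filterByExpr were normalized by TMM and compared with edgeR 4.0.16 (R 4.3.3, quasi-likelihood test), and p-values were adjusted by Benjamini-Hochberg over the whole tested table (FDR, threshold 0.05). SE is the log2 fold change divided by the square root of F. CPM are TMM-normalized, and log2 CPM used a prior count of 2. DESeq2 1.42.0 and limma 3.58.1 were alternatives. The fits were also run on simulated data. All simulated libraries shared the same mean profile apart from the planted changes, so none stood apart as control 1 did here. That run does not bear on the effect of control 1. No 2 libraries were alike within sampling noise. Replicate numbers were not taken as pairs, and the labels do not say whether same-numbered samples belong together. Gene positions, overlaps and shared windows came from GENCODE M21 on GRCm38.

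The genes named were the 10, the called genes of each list (at most 10 per list), paralogs of the 10, core kinases of the cascade, and the 5 genes nearest to Dusp6. Others are named as chosen after their values were seen, or through another tool's call. Some genes that this rule names are not reported here.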

Additional observations from a re-analysis of the deposited data

How the results depend on the processing

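Over all genes, 335 were called, and 759 by the Wald test of DESeq2 (466 higher, 293 lower), 178 with replicate number as a block, 92 with at least 2-fold asked as well, and 47 to 2798 with a library left out, the most without control 1 and the fewest without chronic epinephrine 1 or 2. Of the 10 genes, 5 were called, 4 with the block, which lost Dusp5, and 2 to 8 with a library left out. No gene of the cascade was called, but 2 were by DESeq2 and 0 to 6 with a library left out. No receptor or ligand was called, but 1 was by DESeq2, 1 without a filter on low counts, and 0 to 8 with a library left out. Of the other ERK-responsive genes 2 were called, but 6 by DESeq2 (17.6%, against 5.95% of all genes). The count was 1 each with library size only, with limma on log2(FPKM + 1) or log2(FPKM + 0.1), without a filter and with the block (which lost Errfi1). It was 0 at 2-fold or more and 0 to 13 with a library left out, the 13 without control 1 (38.2%, against 21.6% of all genes). The counts with the size factors of DESeq2, upper quartile scaling and at least 10 counts in every sample were within 1.5 times of these in every list. The cause of these moves was not tested. Over 15 alternatives the log2 fold changes of the 10 genes kept their sign, apart from Spry1 without control 2, and ranged from 1.65 to 2.05 for Dusp6, 1.13 to 1.34 for Dusp4, 0.39 to 0.44 for Dusp5, 0.96 to 2.02 for Etv4, 0.84 to 1.17 for Etv5, 0.52 to 1.20 for Spry4, 0.44 to 0.74 for Spry2, 0.09 to 0.24 for Spred1, -0.03 to 0.09 for Spry1 and -0.38 to -0.16 for Egr1. The lowest values of Dusp6, Dusp5, Etv4, Etv5 and Spry4 were those on log2(FPKM + 1), a scale that understates the change of genes at low levels. Dusp5, at 29.5 FPKM in controls, was not at a low level, and it moved little (0.39, against 0.40 on log2(FPKM + 0.1)). The labels give both groups replicate numbers 1 to 3. Across genes, same-numbered samples deviated from their groups with r of 0.0502, 0.0677 and -0.0488, so the numbers were not taken as pairs. Depth limits Etv4 most, with 21 counts in its lowest library.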

Other observations

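The list of other ERK-responsive genes was not uniform, and the genes below are named after their values were seen. In 17 of the 34 tested the groups were fully separate, 10 higher and 7 lower, against 27.3% of all genes tested in either direction. The higher ones were Etv1, Errfi1, Spred2, Spred3, Epha2, Myc, Nab1, Ier3, Elk3 and Mcl1. Myc, a growth-promoting transcription factor, was at 11.3, 8.63 and 9.20 CPM in controls and at 14.4, 12.9 and 13.2 CPM after epinephrine (log2 fold change 0.47, SE 0.13, edgeR FDR 0.108). Nab1, a corepressor of EGR factors, was at 16.1, 16.6 and 18.5 CPM in controls and at 21.4, 25.9 and 23.6 CPM after epinephrine (0.47, SE 0.11, edgeR FDR 0.0750). The lower ones were Dusp1, Phlda1, Jun, Junb, Elk1, Btg2 and Klf10. None of the lower genes was called. Jun, Junb, Btg2, Klf10 and Dusp1 had log2 fold changes of -0.20, -0.08, -0.26, -0.28 and -0.26, and edgeR FDR values of 0.285, 0.628, 0.225, 0.140 and 0.192. Immediate early genes of the list did not share a direction, since Ier3 was at 0.48 (SE 0.13, edgeR FDR 0.108), while Fos (-0.20), Nr4a1 (0.11), Fosb (0.13), Egr2 (0.39), Arc (0.05) and Ier2 (0.02) overlapped between the groups.

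Ligands at very low levels were outside the test and were also named after their values were seen. Areg, which encodes the epidermal growth factor receptor ligand amphiregulin, had 0 counts in all 3 controls and 25 counts in all over the epinephrine libraries (0.593, 0.392 and 0.529 CPM). Against a floor of 3 counts over the control group, its level was at least 8.18-fold higher. Igf1 showed the reverse, with 15 counts over the controls and 0 in all 3 epinephrine libraries, at least 5.09-fold lower against 3 counts over the epinephrine group.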
